A study of Mus musculus with 4 samples.

Results

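Serpins are a family of proteins that mostly inhibit serine and cysteine proteases, and they were read here in basal cells of mouse tail epidermis in which the Hedgehog pathway was active, with and without the transcription factor Sox9. Members were all genes whose symbol in the platform annotation begins with Serpin and a lower-case letter, the letter after Serpin giving the clade. These were 40 genes with 56 probe sets of a single symbol, of 18193 genes and 34945 such probe sets on the array. A further 6 serpins (Serpina1a, Serpina1d, Serpina1e, Serpinb9e, Serpinb9f and Serpinb9h) were on the array only through 3 probe sets shared between genes, and they were not tested. Clade E was not analysed here.

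Each of 4 samples was read on an Affymetrix 3' array. The SmoM2 group (K14CreER:SmoM2, 2 arrays) carried SmoM2, a Smoothened protein locked in its signalling state, and a tamoxifen-dependent Cre recombinase driven by the keratin 14 promoter, which is active in basal keratinocytes. The Sox9cKO group (K14CreER:SmoM2:Sox9cKO, 2 arrays) carried the same Cre and SmoM2 and a conditional deletion of Sox9, so every difference below is between cells that all expressed SmoM2, and none is against normal epidermis. Both genotypes received 2.5 mg of tamoxifen on 10 consecutive days and were taken 9 weeks after the first dose, and flow sorting kept interfollicular basal cells with surface integrin alpha 6 but without CD34. The labels used here give neither an age nor the number of animals behind a replicate, so p-values measure only the spread between these samples, part of which may be technical.

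All 4 arrays had medians between 5.45 and 5.48 on the log2 scale. Sox9 was read by 3 probe sets, which differed in call. The set of highest mean over all arrays, which stood for the gene, read 8.77 and 9.27 in SmoM2 and 8.06 and 8.48 in Sox9cKO, a log2 difference of -0.75 that did not pass (limma over all probe sets, adjusted p = 0.143). Another read 10.21 and 10.02 against 6.75 and 5.70 and passed (-3.89, adjusted p = 0.00159). The dimmest differed by -0.41 and did not pass (adjusted p = 0.298). All of them had lower signals in both Sox9cKO arrays, and which of them lie in the deleted part was not analysed here. Of 10 basal keratinocyte markers, 1 fell (Lamb3, by 1.25, limma adjusted p = 0.00949) and none rose, beside 3.53% and 2.66% of all genes. Of the 10, 6 had lower signals in both Sox9cKO arrays than in both SmoM2 arrays, as had 3969 of all 18193 genes. The median log2 difference of this list was -0.42. Its keratins stayed bright, Krt5 at 13.20 to 13.41 and Krt14 at 13.15 to 13.76, and Cd34 read 3.75 to 4.15 on the 4 arrays. Cd34 does not stand for other bulge hair follicle genes. Lhx2 read 10.47 to 11.43 and Lgr5 9.20 to 9.53, whereas Fgf18 was dim as well (3.79 to 4.12). The suprabasal keratins Krt1 and Krt10 were also bright, at 12.11 to 12.86 and 12.95 to 13.66. Y-linked genes were bright in SmoM2 replicate 2 and Sox9cKO replicate 1 (means of 8.08 and 7.51) and dim in the other arrays (3.44 and 3.45), so each genotype held both kinds of array.

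An inhibitory serpin presents an exposed loop as bait. The protease cleaves it, the serpin folds the loop into its body, and the protease is left distorted and covalently trapped. Some members do not inhibit proteases and act as chaperones, hormone carriers or signals. Clade A holds mainly secreted plasma proteins related to alpha-1-antitrypsin, whereas clade B proteins lack a classical secretion signal and act largely inside cells. Several clade B members are typical of stratified epithelia such as the epidermis.

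After loss of Sox9, 2 serpins rose and 5 fell among the 40 tested (limma, adjusted over all genes, threshold 0.05). Serpini1 and Serpinb1a rose, and Serpina9, Serpinb11, Serpinb3a, Serpinb6a and Serpinb8 fell. This is 17.5% of serpins, where 6.19% of all 18193 genes were called (2.66% higher and 3.53% lower). The median log2 difference of the 40 genes was 0.09, beside 0.02 for all genes, with 22 above 0 and 18 below. With 2 arrays against 2, exact permutation allows no p below 0.333 for 1 gene (two-sided), so the calls depend on limma's pooling of the spread over genes. Without SmoM2 replicate 1 there were 4 calls, and 3 when SmoM2 replicate 2 was left out.

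The calls lay in 3 clades, to be read beside the 6.19% of all genes called (2.66% higher and 3.53% lower). In clade B, 1 of 18 genes rose and 4 fell (27.8% called), with a median log2 difference of 0.04 and a range of -1.68 to 1.09. In clade A, 1 of 14 genes fell and none rose (7.14% called), with a median of 0.08 and a range of -1.51 to 0.38. This share is close to that of all genes, and is no result about clade A. In clade I, 1 of 2 genes rose. None of the single members of clades C, D, G and H or of the 2 members of clade F was called at the probe set that stood for the gene. Differences between clades were not tested, and 9 of 18 clade B genes but 0 of 14 clade A genes lay above the median signal of all genes. By size alone, without a test, 7 serpins differed 2-fold or more with no overlap of the genotypes, beside 4.16% of all genes. Of these, 2 were higher and 5 lower, beside 1.75% and 2.41% of all genes. The 5 lower were Serpina9, Serpinb3a, Serpinb11, Serpinb2 and Serpina3n, so Serpinb6a and Serpinb8 passed the test with smaller changes.

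**Figure D1:**
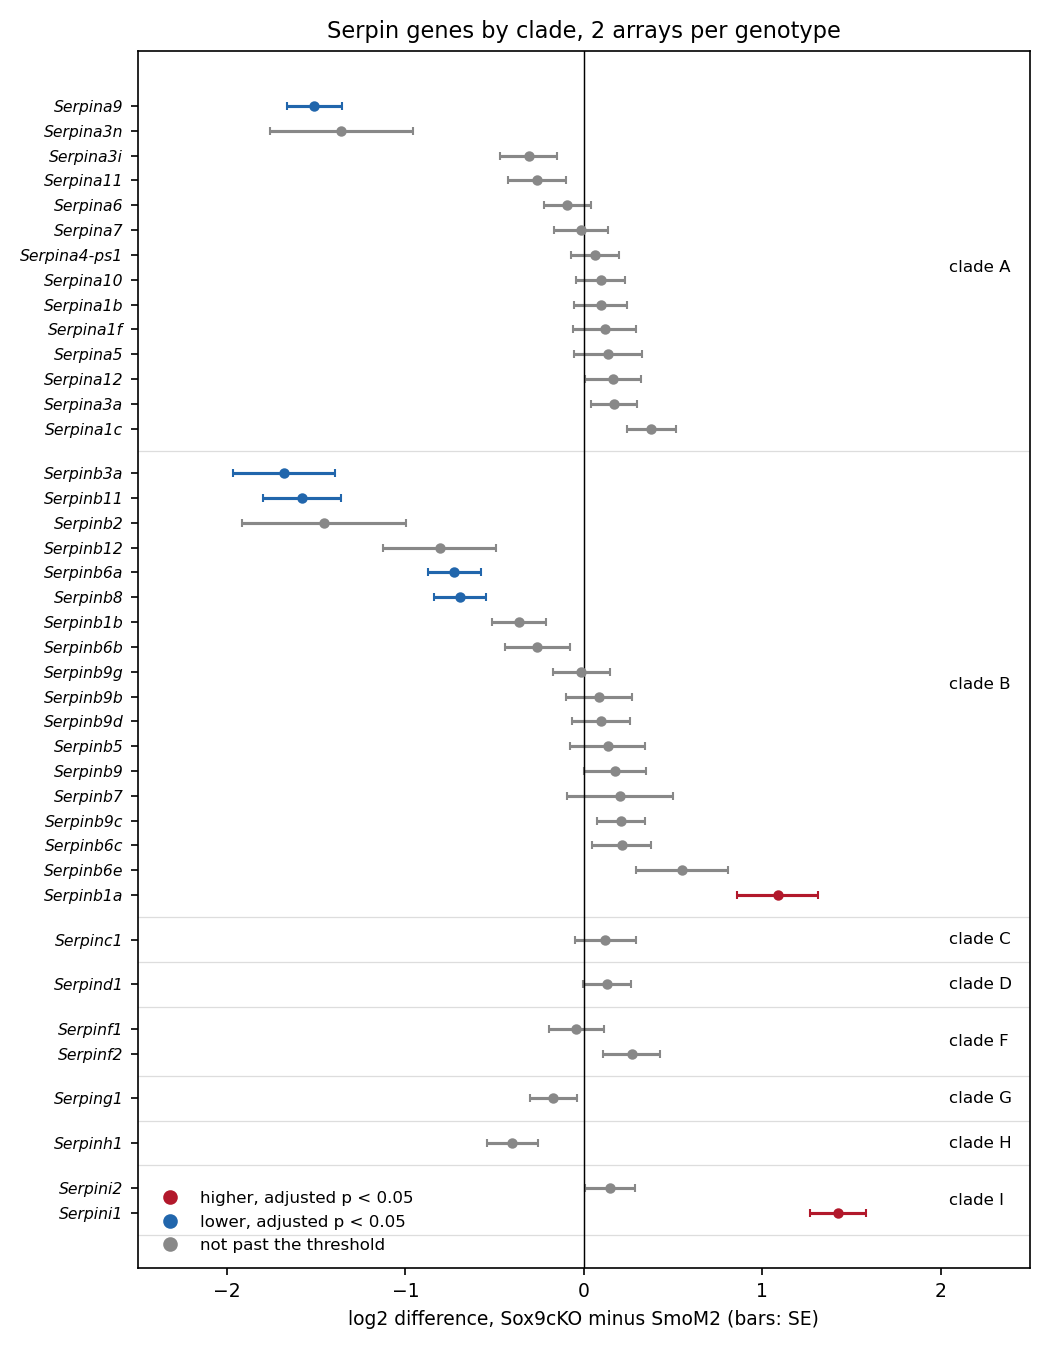
Log2 difference (Sox9cKO minus SmoM2, x axis) of each of the 40 serpin genes, sorted within clade, with the SE of the limma fit as bars and colour for the call. Calls stand in clades A, B and I, and most clade A genes lie close to 0.

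Many serpins were dim. A fixed set of 26 genes of unrelated organs, such as lens and pancreas, had an upper quartile of 5.28 over all arrays, and 22 of the 40 serpins did not exceed this value on any array. Of these 22, 11 were in clade A and 8 in clade B, and none was called. Of the 10 serpins above the median signal of all genes (6.53), 5 were called, beside 7.9% of the genes above it. Probe sets differ in brightness, so each gene is compared only with itself.

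The clade B genes on chromosome 1 lie next to each other in the RefSeq annotation (GRCm38.p6), and 7 of them were measured. Of these, 3 fell (Serpinb3a, Serpinb11 and Serpinb8), none rose, and 5 of 7 had lower signals in both Sox9cKO arrays than in both SmoM2 arrays. Their median log2 difference was -0.81, beside 0.02 for all genes. Of all 18193 genes, 3.53% were called lower and 2.66% higher. Lower signals in both Sox9cKO arrays were seen for 3969 of them, and 47.9% did not overlap between genotypes in either direction. The cluster was singled out after its values were seen, so it is described with no test.

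Promoter windows of 5 of these genes are shown. They are the 3 that fell, Serpinb2, whose difference was of like size but did not pass, and Serpinb5, whose difference was close to 0. Each runs from 250 bases before to 50 after a RefSeq transcription start (GRCm38.p6), 5′ to 3′ on the gene's strand. Capitals mark matches to the AP-1 letters TGANTCA, where N is any base, searched on both strands.
Serpinb11 (chr1:107362064-107362363, plus strand): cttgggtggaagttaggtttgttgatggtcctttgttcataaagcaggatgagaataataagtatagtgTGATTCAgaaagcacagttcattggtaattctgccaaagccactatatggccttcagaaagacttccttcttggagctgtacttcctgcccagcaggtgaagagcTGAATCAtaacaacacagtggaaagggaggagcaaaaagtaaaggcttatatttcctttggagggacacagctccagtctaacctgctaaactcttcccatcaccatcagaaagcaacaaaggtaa
Serpinb2 (chr1:107511173-107511472, plus strand): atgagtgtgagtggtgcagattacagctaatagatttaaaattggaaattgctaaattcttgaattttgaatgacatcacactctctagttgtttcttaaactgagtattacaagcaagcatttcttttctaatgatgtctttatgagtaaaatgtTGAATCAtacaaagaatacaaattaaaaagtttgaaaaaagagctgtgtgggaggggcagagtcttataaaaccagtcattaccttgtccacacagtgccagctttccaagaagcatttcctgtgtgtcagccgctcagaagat
Serpinb8 (chr1:107589756-107590055, plus strand): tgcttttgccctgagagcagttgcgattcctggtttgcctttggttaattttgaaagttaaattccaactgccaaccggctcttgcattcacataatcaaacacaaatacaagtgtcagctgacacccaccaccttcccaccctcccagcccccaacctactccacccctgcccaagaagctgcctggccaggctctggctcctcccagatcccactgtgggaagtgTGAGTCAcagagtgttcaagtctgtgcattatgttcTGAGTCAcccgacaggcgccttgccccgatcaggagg
Serpinb5 (chr1:106860925-106861224, plus strand): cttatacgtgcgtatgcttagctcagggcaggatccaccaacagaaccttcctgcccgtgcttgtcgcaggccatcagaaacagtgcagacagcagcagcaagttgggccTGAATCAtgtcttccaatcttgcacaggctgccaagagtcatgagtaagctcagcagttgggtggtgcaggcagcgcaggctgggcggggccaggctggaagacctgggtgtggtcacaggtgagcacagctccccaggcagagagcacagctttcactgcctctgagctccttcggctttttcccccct
Serpinb3a (chr1:107052254-107052553, minus strand): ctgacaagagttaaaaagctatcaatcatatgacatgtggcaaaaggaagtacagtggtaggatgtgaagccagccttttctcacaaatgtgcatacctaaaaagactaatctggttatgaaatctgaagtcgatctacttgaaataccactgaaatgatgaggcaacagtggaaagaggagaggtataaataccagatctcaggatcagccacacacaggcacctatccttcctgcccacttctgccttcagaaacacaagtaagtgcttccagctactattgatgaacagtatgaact

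AP-1 factors are dimers of Fos and Jun proteins, and the letters TGANTCA used for their motif allow any base at the centre. The printed matches of Serpinb8 read TGAGTCA, whereas those of Serpinb11, Serpinb2 and Serpinb5 read TGAATCA or TGATTCA. Matches were not counted by centre base, and which of these forms AP-1 binds was not tested. With any centre base, the motif stood in a window of 6 of the 7 measured chromosome 1 genes (Serpinb2, Serpinb5, Serpinb7, Serpinb8, Serpinb11 and Serpinb12), beside 8.97% of all 27025 genes with a window. Counted by window it was in 7 of 9, beside 7.81% of all 32851 windows, and the pair of Serpinb2 windows overlap. The matches began 181 and 76 bases before the start in Serpinb11, 94 before in Serpinb2, 23 before and 13 after in Serpinb8 and 140 before in Serpinb5. Of these 6 genes, 2 fell (Serpinb8 and Serpinb11) and 4 were not called (Serpinb2, Serpinb5, Serpinb7 and Serpinb12), while Serpinb3a fell and held none. Over the whole family, 2 of the 5 called serpins with a window held it. Of the 10 measured chromosome 13 genes of clade B with a window, 0 held the motif, and 2 of 10 in clade A held it. The SOX letters ACAATG or ACAAAG were in 4 of the 9 chromosome 1 windows and in 18 of all 40 serpin windows, beside 28.6% of all windows. They shared no bases with an AP-1 match. By gene, 3 of the 7 chromosome 1 genes held them, and the share over all genes was not computed. The GLI letters GACCACCCA were in 0 of the 40 serpin windows and 0.253% of all windows. These matches describe the letters in the windows and nothing about binding.

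Serpinb3a belongs to the mouse genes related to human squamous cell carcinoma antigen, inhibitors of papain-like cysteine cathepsins and related proteases. Its signal was 9.73 and 9.88 in SmoM2 but 7.65 and 8.60 in Sox9cKO. The genotypes did not overlap, and the Sox9cKO arrays were spread more widely. It fell by 1.68 on the log2 scale (SE 0.29), 3.20-fold, with adjusted p = 0.0167 (limma). The call was lost when SmoM2 replicate 1 (adjusted p = 0.0927) or SmoM2 replicate 2 (0.121) was left out. Its only probe set, an _x_at set, may also read near-identical copies, of which Serpinb3b, Serpinb3c and Serpinb3d lie beside it.

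Serpinb11 encodes an inhibitor of trypsin-like proteases in the mouse. It read 8.50 and 9.06 in SmoM2 and 7.38 and 7.03 in Sox9cKO, with no overlap. It fell by 1.58 (SE 0.22), 2.99-fold, with adjusted p = 0.00673 (limma), and it passed the threshold under all 13 other settings tried.

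Serpinb8, whose human counterpart can inhibit the proprotein convertase furin, read 8.65 and 8.84 in SmoM2 and 7.97 and 8.14 in Sox9cKO. The arrays within each genotype were close, and the genotypes did not overlap. It fell by 0.69 (SE 0.15), 1.62-fold, with adjusted p = 0.0380 (limma). The call was lost when any of the 4 arrays was left out, with adjusted p between 0.0712 and 0.191, and its other probe set differed by -1.22 (adjusted p = 0.121 among probe sets).

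Serpinb2, also known as plasminogen activator inhibitor 2, blocks the urokinase-type activator. It had the values 10.59 and 11.92 in SmoM2 and 9.30 and 10.31 in Sox9cKO. The Sox9cKO arrays lay below both SmoM2 arrays, but the spread within each genotype was wide, at 0.94 and 0.72 (SD, n = 2 each). The log2 difference of -1.46 (SE 0.46) did not pass the test (limma, adjusted p = 0.140), with a 95% interval of -2.54 to -0.37. Leaving out SmoM2 replicate 2 gave -0.79, and leaving out SmoM2 replicate 1 gave -2.12.

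Serpinb12, an inhibitor of trypsin-like proteases found in epithelia, was read by 2 probe sets that gave different calls. The brighter had 8.77 and 8.87 in SmoM2 and 7.46 and 8.56 in Sox9cKO, a log2 difference of -0.81 (SE 0.32, limma adjusted p = 0.238). It was -1.35 without Sox9cKO replicate 2 (adjusted p = 0.00648) and -0.26 without Sox9cKO replicate 1. The dimmer had 6.38 on both SmoM2 arrays and 4.51 and 5.06 in Sox9cKO, and fell by 1.60 (SE 0.20), with adjusted p = 0.00735 when all probe sets were tested by limma. Both probe sets put the Sox9cKO arrays below the SmoM2 arrays.

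Serpinb5, or maspin, a non-inhibitory serpin of basal and glandular epithelial cells, opens this row of genes. It was bright on every array, at 11.999 and 12.083 in SmoM2 and 11.87 and 12.48 in Sox9cKO, and the genotypes overlapped. Its log2 difference was 0.13 (95% interval -0.36 to 0.63; limma adjusted p = 0.823), and its 4 probe sets gave 0.13 to 0.34. Serpinb7, a serpin linked to a human palmoplantar keratosis, was dim, with 3.98 and 3.83 in SmoM2 and 3.61 and 4.61 in Sox9cKO (difference 0.20, adjusted p = 0.808). Outside the cluster, the nearest measured genes were Vps4b on the Serpinb5 side (0.17, adjusted p = 0.623) and Cdh7 on the Serpinb8 side (-0.03, adjusted p = 0.946). Neither passed the test, nor did the other 6 flanking genes examined.

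**Figure D2:**
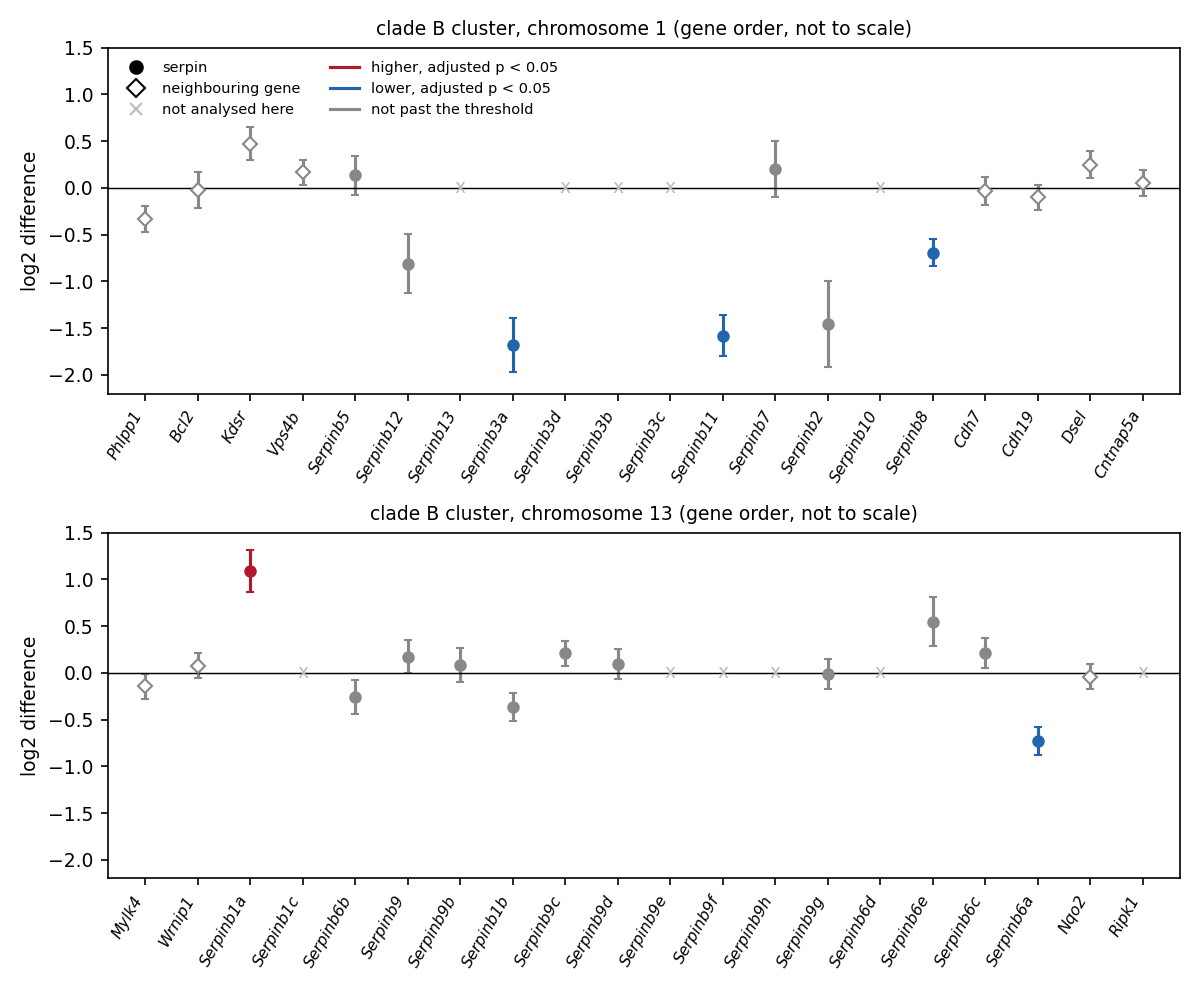
Log2 difference (Sox9cKO minus SmoM2, y axis, bars SE) of clade B genes and their flanking protein-coding genes in RefSeq order on chromosomes 1 and 13, where crosses mark genes not analysed here. On chromosome 1, Serpinb12, Serpinb3a, Serpinb11, Serpinb2 and Serpinb8 lie between -1.68 and -0.69 and none of the 8 flanking genes is called, and on chromosome 13 the calls are Serpinb1a, higher, and Serpinb6a, lower, at the ends of the row.

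The second clade B cluster, on chromosome 13, had 11 measured genes, with a median log2 difference of 0.10. Of these, 1 rose and 1 fell, beside 2.66% and 3.53% of all genes. Serpinb1a inhibits neutrophil elastase, cathepsin G and proteinase 3. Its brighter probe set read 8.89 and 8.91 in SmoM2 and 9.64 and 10.34 in Sox9cKO, with no overlap. It rose by 1.09 (SE 0.23), 2.12-fold, with adjusted p = 0.0365 (limma). The call was lost without SmoM2 replicate 1 (adjusted p = 0.173), SmoM2 replicate 2 (0.171) or Sox9cKO replicate 2 (0.0710). Its other probe set read 5.34 and 5.30 against 6.71 and 6.88, a rise of 1.48 (SE 0.14) with adjusted p = 0.00291 among probe sets. Neutrophils also make this inhibitor. None of 7 neutrophil markers was called, and the list lay between 4.36 and 5.96. The log2 of its summed signal (signals taken off the log scale, then added) was 7.83 and 7.67 in SmoM2 and 7.82 and 7.98 in Sox9cKO. Elane and Ngp had higher signals in both Sox9cKO arrays, with differences of 0.48 and 0.34 (limma adjusted p = 0.264 and 0.326). The part of neutrophils in the Serpinb1a result was not tested.

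Serpinb6a, a broadly expressed inhibitor of cathepsin G and trypsin-like proteases, stands at the other end of that row. It read 11.00 and 11.16 in SmoM2 and 10.25 and 10.46 in Sox9cKO. Arrays of each genotype were close and did not overlap, and the gene fell by 0.73 (SE 0.15), 1.65-fold, with adjusted p = 0.0337 (limma). The call was lost when any of the 4 arrays was left out, with adjusted p between 0.0514 and 0.176. The related Serpinb6b, Serpinb6c and Serpinb6e had log2 differences of -0.26, 0.21 and 0.55 and did not pass. Serpinb9, an inhibitor of granzyme B, and the measured Serpinb9b, Serpinb9c, Serpinb9d and Serpinb9g copies lay between -0.01 and 0.21 at their brightest probe sets. None exceeded a signal of 5.32 on any array. The second sets of Serpinb9 and Serpinb9c differed by -0.11 and -0.20 (limma adjusted p = 0.808 and 0.572 among probe sets). Each Serpinb9c set kept the genotypes apart, but in opposite directions. Members of the Serpinb6 and Serpinb9 groups are close copies of each other, so signal may be shared between them.

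**Figure D3:**
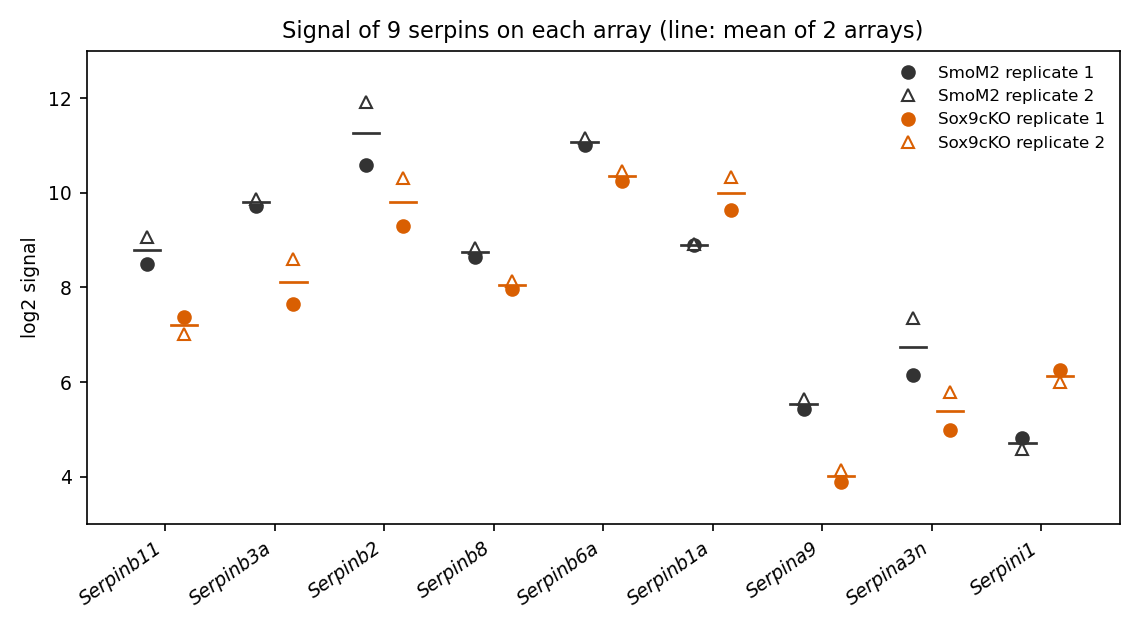
Log2 signal (y axis) of 9 serpins on each of the 4 arrays, circles for replicate 1, triangles for replicate 2 and lines for the mean of 2 arrays. For all 9 genes the genotypes do not overlap, and the spread within a genotype is widest for Serpinb2 and Serpina3n.

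In clade A, the gene that fell was Serpina9, or centerin, known from germinal centre B cells. It read 5.44 and 5.63 in SmoM2 and 3.90 and 4.15 in Sox9cKO. The Sox9cKO values lie under the median of the genes of unrelated organs (4.66), so the size of the change is not exact. It fell by 1.51 (SE 0.16), 2.85-fold, with adjusted p = 0.00212 (limma), and it was called under all 12 other settings that kept it. Its neighbours Serpina11 and Serpina12 had differences of -0.26 and 0.16 and did not pass. Cd3e, Cd8a and the other T cell and NK cell markers were not called (none of 8), and no B cell list was examined.

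Serpina3n, an acute-phase inhibitor of granzyme B and other proteases, read 6.16 and 7.35 in SmoM2 and 4.99 and 5.79 in Sox9cKO. The genotypes did not overlap, but the SmoM2 arrays were more than 1 log2 unit apart. The log2 difference was -1.36 (SE 0.40) and did not pass (limma adjusted p = 0.114; 95% interval -2.30 to -0.42). It was -1.96 without SmoM2 replicate 1, where it passed (adjusted p = 0.0462), and -0.76 without SmoM2 replicate 2 (adjusted p = 0.373). The other 12 clade A genes included the alpha-1-antitrypsin copies Serpina1b, Serpina1c and Serpina1f, the hormone carriers Serpina6 and Serpina7 and the adipokine vaspin (Serpina12). Their differences lay between -0.31 and 0.38, and none passed.

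Serpini1, or neuroserpin, an inhibitor of tissue-type plasminogen activator known mainly from neurons, had the smallest p among the serpins that rose. It read 4.83 and 4.60 in SmoM2 and 6.26 and 6.01 in Sox9cKO. It rose by 1.42 (SE 0.16), 2.68-fold, with adjusted p = 0.00280 (limma). Both SmoM2 values lay under the upper quartile of the genes of unrelated organs, so the size is again not exact. A dimmer probe set rose by 0.83 (4.08 and 4.04 against 5.07 and 4.71, adjusted p = 0.0429 among probe sets), and the dimmest differed by 0.12 at signals of 3.04 to 3.22. With the mean of the 3 probe sets the change was 0.79. The neighbouring gene Pdcd10 differed by -0.03 (adjusted p = 0.945). Plat, which encodes the tissue-type activator itself, also rose, by 1.45 (SE 0.17), from 7.91 and 7.63 to 9.07 and 9.37 (adjusted p = 0.00340). The pancreatic Serpini2 was dim and differed by 0.15 (adjusted p = 0.686).

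Serpinf1, or pigment epithelium-derived factor, a secreted non-inhibitory serpin that restrains blood vessel growth, was read by 2 probe sets that differed in size and call. The set with the higher mean read 5.64 and 5.82 in SmoM2 and 5.55 and 5.82 in Sox9cKO, with overlap and a difference of -0.04 (SE 0.15, limma adjusted p = 0.934). The other read 5.93 and 6.11 against 4.77 and 4.49, and fell by 1.39 (SE 0.16) with adjusted p = 0.00549 among probe sets. With the mean of both, the gene fell by 0.72 (adjusted p = 0.0231). Which probe set reads the transcripts of these cells was not tested. Serpinf2, the plasmin inhibitor alpha-2-antiplasmin, read 5.24 to 5.76 over the 4 arrays and differed by 0.27 (adjusted p = 0.468).

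**Figure D4:**
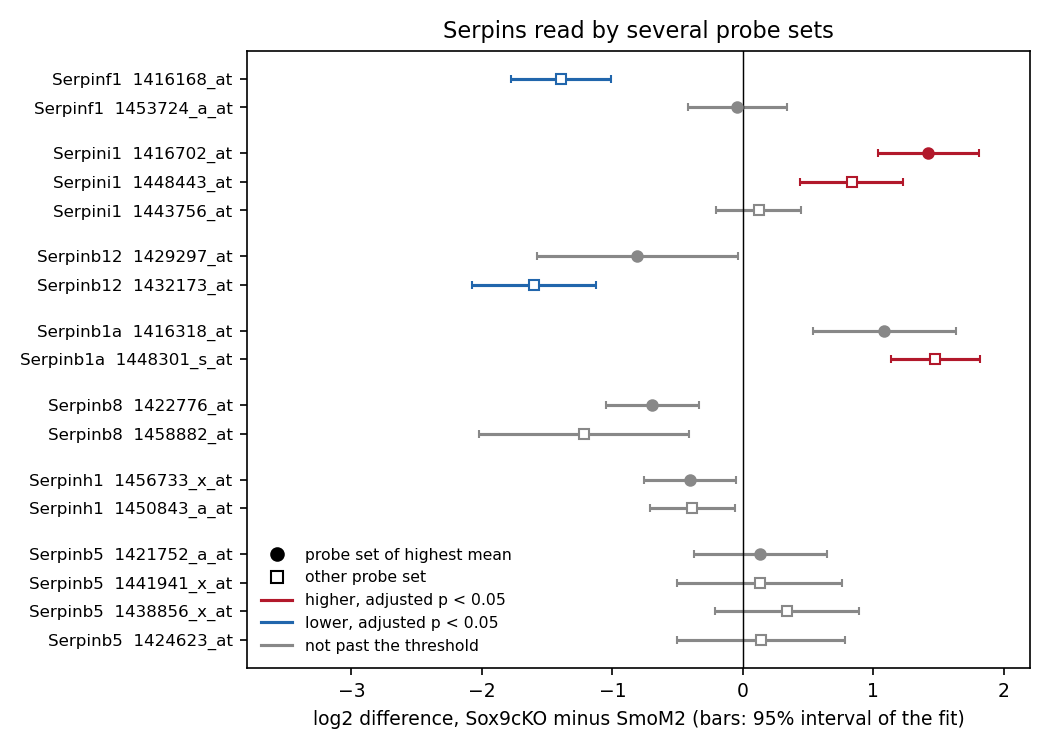
Log2 difference (x axis, bars 95% interval of the fit on all probe sets) at each probe set of 7 serpins with several, filled circles for the set of highest mean. The Serpinf1 sets stand apart at -0.04 and -1.39, while the Serpinb5 sets lie between 0.13 and 0.34, and in this fit the Serpinb1a and Serpinb8 sets of highest mean miss the threshold.

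When all probe sets were tested, 8 of 56 serpin probe sets passed (3 higher and 5 lower), 14.3% beside 4.21% of all probe sets (1.69% higher and 2.51% lower). The wider adjustment left Serpinb1a, Serpinb6a and Serpinb8 just short of a call at their brightest sets, with adjusted p between 0.0516 and 0.0579.

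Serpinh1, or Hsp47, a chaperone of the endoplasmic reticulum that helps collagen fold, read 9.07 and 8.92 in SmoM2 and 8.68 and 8.51 in Sox9cKO. The genotypes did not overlap, but the difference of -0.40 (SE 0.14) did not pass (limma adjusted p = 0.192; 95% interval -0.74 to -0.06), and its second probe set gave -0.39. Of 25 measured collagens and collagen-folding genes, 1 fell and none rose, with a median of -0.22. This is close to the 3.53% of all genes that were lower, and is no result about the list. Col5a2 fell by 2.69, from 7.90 and 8.43 to 5.29 and 5.65 (adjusted p = 0.000795). Serping1, the inhibitor of the complement proteases C1r and C1s, was dim and differed by -0.17 (adjusted p = 0.595). The inhibitors of thrombin Serpinc1 (antithrombin) and Serpind1 (heparin cofactor II) read 4.18 to 4.59 and 5.15 to 5.34 and differed by 0.12 and 0.13 (adjusted p = 0.801 and 0.705).

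Among 40 measured proteases and protease receptors that serpins act on or near, 2 rose and 10 fell, with a median log2 difference of -0.07. This is beside 2.66% and 3.53% of all genes. The lower genes of smallest p were the cathepsin Ctsl and the kallikreins Klk10 and Klk6. Ctsl, a papain-like lysosomal cathepsin, fell by 2.57, from 10.68 and 11.26 to 8.36 and 8.43 (adjusted p = 0.000769). Klk10 read 7.91 and 7.70 against 5.73 and 5.74, and Klk6 8.26 and 8.21 against 6.63 and 6.44 (adjusted p = 0.000491 and 0.000875). The thrombin receptor F2r rose by 1.61, from 8.68 and 8.94 to 10.41 and 10.45 (adjusted p = 0.00133). Plau, the urokinase-type activator, differed by -0.09 (adjusted p = 0.864). Of 23 measured clearance receptors and binding partners of serpins, 2 fell and none rose, with a median of -0.02. These were the thrombin cofactor thrombomodulin (Thbd), which fell by 0.90, and the sorting receptor Sorl1, which fell by 0.67 (adjusted p = 0.0189 and 0.0405). The clearance receptors Lrp1 and Vldlr differed by 0.18 and -0.06 and did not pass.

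Several lists of other cell types and programmes held called genes, to be read beside the 2.66% of all genes called higher and 3.53% called lower. Of 18 measured squamous stress genes, 5 fell (S100a8, S100a9, Lcn2, Il1rn and Csta1) and none rose, with a median of -0.58. The log2 of the summed signal of this list was 16.18 and 16.51 in SmoM2 and 15.71 and 15.52 in Sox9cKO. Summed signals below are given in the same way, and the brightest genes of a list weigh most in them. Of 10 suprabasal markers, 3 rose (Lor, Dsg1a and Flg) and none fell, with summed signals of 15.31 and 15.26 against 15.19 and 15.70. Of 9 measured inner root sheath, companion layer and hair cortex markers, 7 rose and none fell, with summed signals of 10.09 and 9.89 against 12.82 and 11.997. Of 8 bulge hair follicle genes, 4 fell (Foxc1, Dkk3, Tcf7l1 and Nfatc1) and 1 rose (Lhx2), with a median of -0.67 and summed signals of 11.96 and 12.07 against 12.06 and 11.94. Of 7 measured sebocyte markers, 2 fell (Cidea and Plin2) and none rose, with a median of -1.07 and summed signals of 13.06 and 12.50 against 12.57 and 12.36. Of 6 Merkel cell markers, 1 fell (Sox2, by 3.20), with summed signals of 8.46 and 8.49 against 8.40 and 7.85. Of 10 fibroblast markers, 1 rose (Dcn, by 3.66) and none fell, with a median of 0.14 and summed signals of 10.05 and 10.01 against 12.26 and 12.87. The other 9 differed by -0.61 (Fbln1) to 0.72 (Col1a2), and Col1a1 read 4.08 to 4.51. Of 10 Langerhans and myeloid cell markers, 1 rose (H2-Aa, by 1.87) and none fell, with a median of 0.21. Their summed signals were 9.27 and 9.08 against 9.56 and 9.46. Cd68 and Cd74 differed by -0.54 and 0.61 and did not pass. The part of all these lists in the serpin differences was not tested. In sorted bulk cells, fewer cells of a type and less RNA per cell cannot be told apart.

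**Figure D5:**
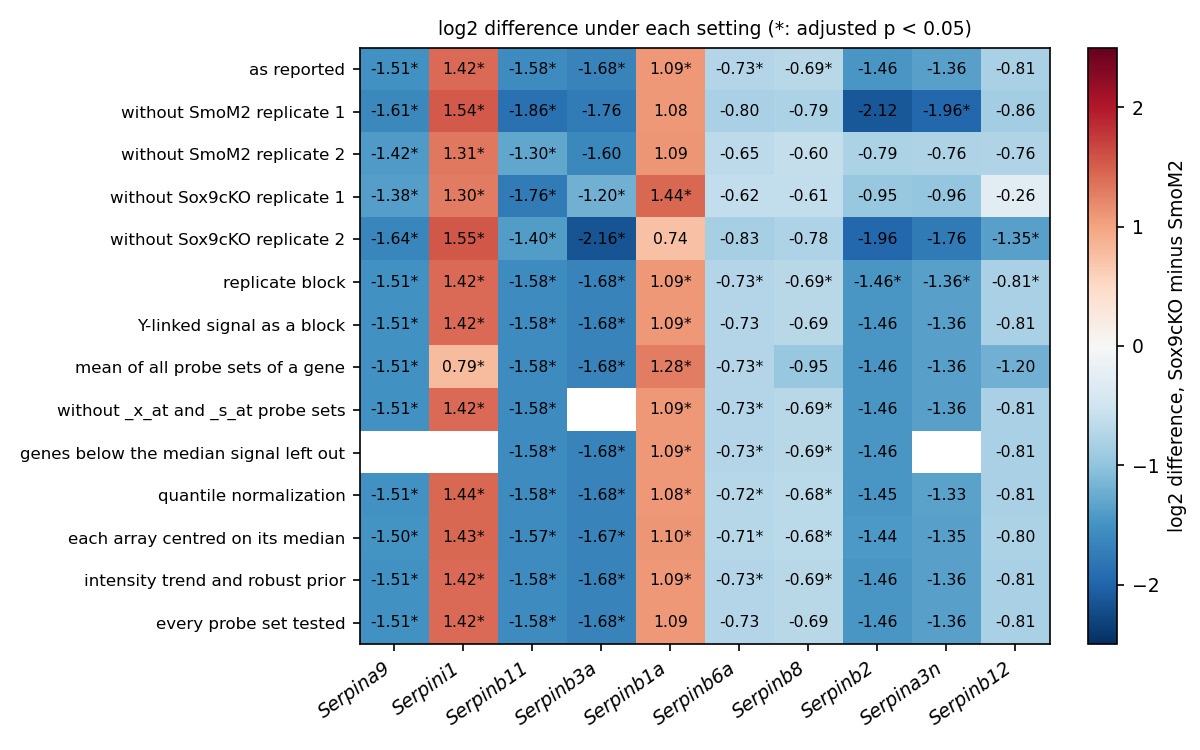
Log2 difference (Sox9cKO minus SmoM2, colour and numbers) of 10 serpins under the reported setting and each alternative, with an asterisk for adjusted p under 0.05 and blanks where the gene was not in the fit. Every value keeps its sign, Serpina9, Serpini1 and Serpinb11 are called in every fit that holds them, and Serpinb6a and Serpinb8 lose the call whenever an array is left out.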

How the data were processed

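The authors deposited a log2 signal for every probe set on every array. The submitters' processing notes name R 2.14.0 with no role, the method of summary and normalization being one not given in the sources used here. That they are on a log2 scale was judged from their range, and they were used as deposited. Array medians were nearly equal, so these values cannot show a shift common to most genes. Precision is limited by having only 4 arrays.

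Of 45101 probe sets, 34945 had 1 symbol in the platform annotation and 932 had several, and the latter and unnamed ones were not tested. Symbols were updated by entrez ID for 34741. The probe set of highest mean over all 4 arrays stood for a gene. Sox9cKO was compared with SmoM2 in R 4.3.3 with limma 3.58.1 (lmFit, eBayes, no covariate, two-sided, 7.17 degrees of freedom), adjusted by Benjamini-Hochberg over 18193 genes, or over all probe sets where stated. The procedure was also run on simulated data with known changes, as a check of the code and not as support for any call. Promoter windows came from RefSeq (GRCm38.p6) and matched 34 of 40 serpins by symbol.

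Named are serpins that were called, that differed 2-fold without overlap, that had the smallest p of an uncalled clade or whose probe sets disagreed, with up to 4 called genes per pathway list by smallest p and others for context. Serpinb5, Serpinb7 and other uncalled members outside this rule, and Plat, Csta1, Plau, Lrp1, Vldlr, marker genes and the neighbouring genes, were added after their values were seen. Members, lists and tests were chosen with earlier results of these data known.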

Additional observations from a re-analysis of the deposited data

How the results depend on the processing

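The 13 alternatives left out each array, added a block for the replicate number or for Y-linked signal, changed how probe sets stand for a gene, left out dim genes, rescaled the arrays or changed the prior. Of the serpins called, Serpina9, Serpini1 and Serpinb11 kept their call in every alternative that held them, Serpinb3a in 10 of 12, Serpinb1a in 9 of 13, Serpinb6a in 7 of 13 and Serpinb8 in 6 of 13, and no call changed sign. The number of serpins called, 7 as reported, was 3 to 5 with an array left out, where a lone array is assumed to vary like the other group. It was 4 when every probe set was tested, and 11 with the replicate block. The replicate block added Serpinb2, Serpina3n, Serpinb12 and, higher, Serpinb6e. Deviations from the group means correlated at r = 0.09 between arrays of the same number, and with only 2 numbers these were not taken to pair the arrays. The block for Y-linked signal pairs arrays of unlike number, and lost Serpinb6a (adjusted p = 0.0641) and Serpinb8 (adjusted p = 0.0722). The number of serpin probe sets called, 8 as reported, was 6 to 10 with an array left out and 15 with the replicate block. The median log2 difference of serpins, 0.09, ranged from -0.061 to 0.11 with an array left out, and was -0.71 over the 10 serpins that remained when genes below the median signal were left out. The cause of these changes was not tested, and some of these fits also held fewer genes or arrays.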

Other observations

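The 3 probe sets shared between serpins were dim on every array. The set shared by Serpina1a and Serpina1d read 3.15 and 3.06 in SmoM2 and 2.96 on both Sox9cKO arrays. The set shared by Serpina1b, Serpina1c and Serpina1e read 4.004 and 3.758 against 3.79 and 3.58. The set shared by Serpinb9e, Serpinb9f, Serpinb9g and Serpinb9h read 3.77 and 4.10 against 4.06 and 4.01. All of these values lie under the median of the genes of unrelated organs, 4.66. Close to the Serpinf1 and Serpinf2 pair on chromosome 11, Tlcd2, singled out after its value was seen, fell by 0.89 (limma adjusted p = 0.0228), from 8.91 and 8.53 to 7.82 and 7.83.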
